A study of Mus musculus with 30 samples.

Results

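Endothelial cells line every blood vessel, and 9 genes that mark them in brain were followed here in the primary visual cortex (V1) of mice at postnatal days 14, 28 and 60 (P14, P28 and P60). The genes are Cldn5, Pecam1, Kdr, Flt1, Tek, Tie1, Slc2a1, Vwf and Eng. Every probe set whose array annotation gave 1 of these symbols alone was taken, which made 16 of 36899 probe sets, for 9 of 15965 annotated genes. Of the 9 genes, 5 had more than 1 probe set. The choice used the symbols and no measured value.

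In brain, endothelial cells are sealed to each other by tight junctions and carry glucose and other nutrients inward through dedicated transporters, and together these make the blood-brain barrier. New vessels grow under the control of vascular endothelial growth factor (VEGF) and its receptors, while the angiopoietins and their TIE receptors settle and stabilise them. In the mouse cortex the capillary network is still being extended in the first weeks after birth and grows quiet later.

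Litters of mice under standard rearing gave the RNA, which was extracted from microdissected V1, and there were 3 litters of P14, 3 of P28 and 4 of P60. Strain, genotype, sex and the number of animals in a litter sample are not given in the sources used here, and no treatment or allele is named. Each litter was measured on 3 Affymetrix array types, called chips A, B and C, which made 30 arrays. The values are MAS5 signals on a linear scale, and 15 probe sets per chip for Bacillus transcripts, which mouse RNA should not light up, set a background level at their 95th percentile, and this level is 98.4 (chip A), 153 (chip B) or 252 (chip C). Signals of different probe sets cannot be set against each other, so every level below is compared only with the same probe set in other litters or with that background. In whole tissue, fewer endothelial cells and less RNA per endothelial cell cannot be told apart.

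Some arrays stood apart. In P14 litter 1 the signal ratio of 3′ to 5′ control probe sets was 9.57 to 12.2 for Gapdh and 12.2 to 12.8 for Actb, against 0.741 to 1.32 and 1.04 to 1.5 on the other 27 arrays. The mean correlation of an array with the rest of its chip type was 0.910 for P60 litter 1 and 0.923 for P60 litter 4 in chip A, 0.884 and 0.883 in chip B, and 0.860 for P60 litter 2 in chip C. P60 litters 2 and 3 had 0.936 and 0.941 in chip A and 0.928 and 0.930 in chip B. In chip C P60 litter 3 had 0.898 and was kept. Results are therefore also given without P14 litter 1, and for a restricted set of arrays that leaves out P14 litter 1 on every chip, P60 litters 1 and 4 on chips A and B, and P60 litter 2 on chip C. All 9 neuron markers checked, among them Snap25 and Syt1, were bright enough to be tested in this cortical tissue.

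Endothelial promoters are known for binding sites of ETS transcription factors, whose core is GGAA. The bases just before the start site are therefore shown for 4 of the genes, 1 without a match and the 3 with matches. They are RefSeq sequences on GRCm38.p6 and cover the 150 bases before the annotated start, 5′ to 3′ on the gene's strand. Capitals mark each GGAAG or its reverse complement CTTCC.
Cldn5, chr16:18776697-18776846, plus strand: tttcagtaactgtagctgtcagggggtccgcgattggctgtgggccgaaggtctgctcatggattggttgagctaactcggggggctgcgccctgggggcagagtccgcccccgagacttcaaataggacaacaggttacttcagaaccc
Eng, chr2:32646445-32646594, plus strand: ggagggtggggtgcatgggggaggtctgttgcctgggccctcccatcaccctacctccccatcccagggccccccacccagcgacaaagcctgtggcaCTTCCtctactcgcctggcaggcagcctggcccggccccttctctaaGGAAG
Flt1, chr5:147726012-147726161, minus strand: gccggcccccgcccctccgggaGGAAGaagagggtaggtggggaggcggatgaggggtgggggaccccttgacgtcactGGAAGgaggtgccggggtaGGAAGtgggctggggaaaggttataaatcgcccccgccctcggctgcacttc
Tie1, chr4:118489850-118489999, minus strand: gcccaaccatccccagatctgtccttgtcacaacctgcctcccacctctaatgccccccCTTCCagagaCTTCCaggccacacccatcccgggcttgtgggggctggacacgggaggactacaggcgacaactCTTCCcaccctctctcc
These letters occur 2 times in the Eng window and 3 times each in those of Flt1 and Tie1, and not in those of Cldn5, Kdr, Tek or Slc2a1. The shorter core GGAA, or its reverse complement TTCC, is not counted as a match and does occur in the Kdr and Tek windows. Of 32851 mouse promoter windows of the same length, 47.7% hold at least 1 match and 15.2% hold 2 or more. A match describes the letters and shows no bound site. The table had 7 of the 9 genes, Pecam1 and Vwf not being among them.

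No endothelial probe set passed limma's test in any comparison of ages with all litters. Of the 16 probe sets, 9 passed a filter on brightness and were tested, having a signal above the median of their chip type in 3 arrays or more, and they covered 7 genes, all but Tek and Tie1. The called share of all 20724 tested probe sets was 0.00483% between P14 and P28, 0% between P28 and P60, and 0.396% between P14 and P60, at an adjusted p of 0.05 (limma with Benjamini-Hochberg adjustment). At an unadjusted p of 0.05, 0, 1 and 3 of the 9 endothelial probe sets passed in those comparisons, where 7.87%, 5.43% and 15.7% of all tested probe sets did. The 3 between P14 and P60 were those for Vwf and Eng, with lower signal at P60, and 1 of the Flt1 probe sets, with higher signal, and the 1 between P28 and P60 was the same Flt1 probe set. By direction, 7.81% of all tested probe sets passed this way upward and 7.93% downward from P14 to P60, and 3.04% upward from P28 to P60. The moderated F test over the 3 ages gave no endothelial call either (smallest adjusted p = 0.28, limma), and it called 0.111% of all tested probe sets.

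**Figure D1:**
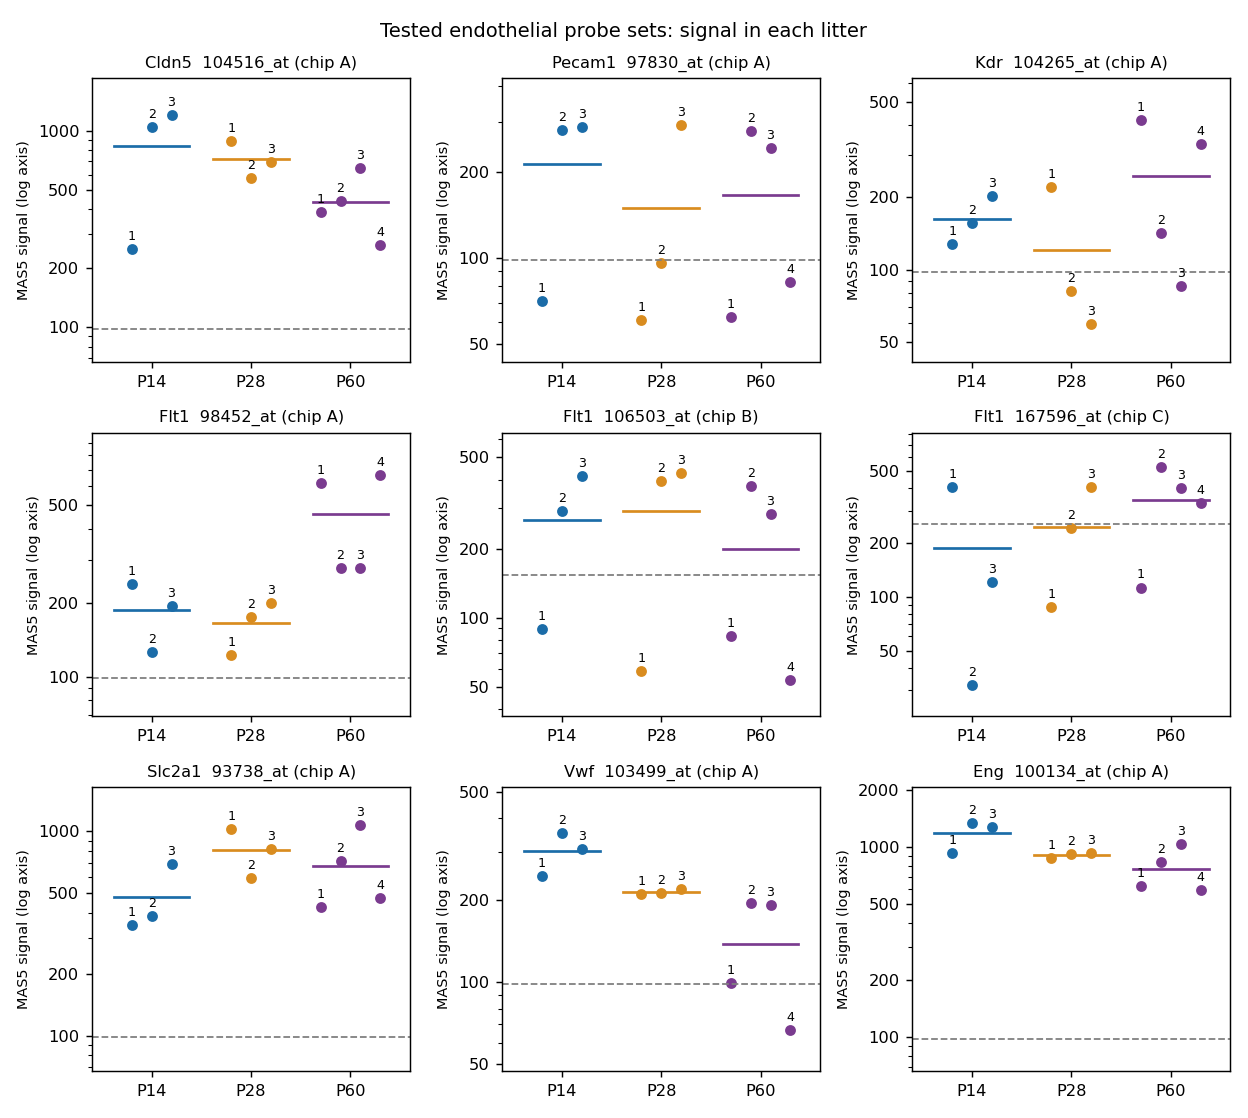
MAS5 signal on a log axis of the 9 tested endothelial probe sets in each litter, with 1 point per litter labelled by its number, a bar at the age mean and a dashed line at the 95th percentile of the Bacillus controls of that chip. The Vwf points of the 3 ages do not overlap and step down, and the Flt1 points of chip A at P60 lie above those of both younger ages, while P14 litter 1 lies well below the other P14 litters for Cldn5 and Pecam1.

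Of the barrier genes, Cldn5 encodes claudin-5, the main tight junction strand protein of brain endothelium. Its signal on probe set 104516_at (chip A) was 251, 1053 and 1211 in P14 litters 1 to 3, 892, 579 and 695 at P28, and 387, 442, 647 and 264 in P60 litters 1 to 4. P14 litters 2 and 3 thus lay above every later litter, whereas P14 litter 1, the litter with the high 3′ to 5′ ratios, lay below every other litter of the study. With all litters the log2 change from P14 to P60 was -0.69 with a standard error of 0.448 (limma, adjusted p = 0.464, 95% interval -1.67 to 0.28). Without P14 litter 1 it was -1.36 with a standard error of 0.284 and passed (limma, adjusted p = 0.0322), with 2 P14 litters left against 4. It was -0.41 without P14 litter 2 and -0.31 without P14 litter 3 (limma, adjusted p = 0.711 and 0.793). The fit without P14 litter 1 called 2.4% of all tested probe sets, and Cldn5 was its 1 endothelial call. In the restricted set, on chip A 2 litters at each of P14 and P60, the change was -1.02 (limma, adjusted p = 0.0571), where 2.13% of all tested probe sets were called. From P14 to P28 the sign turned with that litter, at 0.03 with all litters and -0.64 without it (limma, adjusted p = 0.994 and 0.496). All 10 arrays gave Cldn5 a signal above the Bacillus level.

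Slc2a1 encodes GLUT1, the transporter that carries glucose across the endothelium and, in another form, into astrocytes. The signal on 93738_at (chip A) was 347, 387 and 694 at P14, 1024, 589 and 819 at P28, and 428, 714, 1081 and 472 at P60. All later litters lay above P14 litters 1 and 2, P14 litter 3 lay among them, and all ages overlapped. The log2 change from P14 to P28 was 0.75 with a standard error of 0.358 (limma, adjusted p = 0.651), and the 95% interval ran from -0.03 to 1.53. From P14 to P60 it was 0.44 (limma, adjusted p = 0.537). Leaving out P14 litter 1 gave 0.26, leaving out P14 litter 3 gave 0.72, leaving out P60 litter 3 gave 0.19, and the restricted set gave 0.72, with no call (limma, adjusted p from 0.264 to 0.754). Slc2a3, the neuronal glucose transporter GLUT3, stood at 912 at P14 and 524 at P60 in the means, a log2 change of -0.77 (limma, adjusted p = 0.134; -0.44 in the restricted set), with -0.89 and -0.59 on its other tested probe sets, and Hk1, a hexokinase, stood at 2108, 3263 and 1908 at the 3 ages, with a log2 change from P14 to P60 of -0.17 with all litters, -0.40 leaving out P14 litter 1 and -0.72 in the restricted set. Over this list 2 of 4 tested genes were higher at P60 than at P14, without a call, and the median was 0.02 with all litters, -0.26 leaving out P14 litter 1 and -0.32 in the restricted set. Of the remaining members, Slc2a8 stood at 0.20 with all litters and -0.11 without P14 litter 1. Slc2a5, a fructose transporter gene, lay below the chip A background on 7 of 10 arrays, among them every P14 array, so no size is given for its change.

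Pecam1 encodes an adhesion molecule of endothelial junctions that platelets and white blood cells also carry. Its signal on 97830_at (chip A) was 71.0, 281 and 287 at P14, 61.0, 95.9 and 291 at P28, and 62.4, 277, 242 and 82.6 at P60. Each age held litters above and litters below the Bacillus level of 98.4, and only 5 of 10 arrays lay above that level. The log2 change from P14 to P60 was -0.31 with a 95% interval from -1.55 to 0.93 (limma, adjusted p = 0.815). It was -0.83 leaving out P14 litter 1 (limma, adjusted p = 0.435) and -0.12 in the restricted set (limma, adjusted p = 0.929), and lay between -0.83 and -0.028 over the fits that each left out 1 litter. The low litters were litter 1 at every age, P28 litter 2 and P60 litter 4.

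The VEGF receptors gave different pictures on different probe sets. Kdr encodes VEGF receptor 2, the receptor that drives endothelial growth. On 104265_at (chip A) it had signals of 128, 157 and 202 at P14, 221, 81.3 and 59.4 at P28, and 420, 143, 85.4 and 335 at P60. It passed the brightness filter on 3 arrays, P28 litter 1 and P60 litters 1 and 4. Of its 10 arrays, 7 lay above the Bacillus level. The spread at P60 was wide, with litters 1 and 4 far above litters 2 and 3, and the change from P14 to P60 was 0.33 (limma, adjusted p = 0.767) with all litters and -0.53 (limma, adjusted p = 0.616) in the restricted set, which leaves those 2 litters out. Leaving out P14 litter 1 gave 0.20, leaving out P60 litter 1 gave 0.033, leaving out P60 litter 4 gave 0.13 and leaving out P60 litter 3 gave 0.66 (limma, adjusted p from 0.419 to 0.985). The other Kdr probe set, 135757_at on chip C, was not tested, had means of 85.8, 195 and 112 over the 3 ages, and lay above the chip C background on 1 of 10 arrays.

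Flt1 encodes VEGF receptor 1, which binds VEGF tightly, signals weakly and is also made as a soluble form. On 98452_at (chip A) its signals were 239, 126 and 195 at P14, 122, 175 and 200 at P28, and 616, 277, 278 and 665 at P60. Every P60 litter lay above every younger litter, and all 10 arrays lay above the Bacillus level. Its 5 arrays above the filter's median of 207 were P14 litter 1 and every P60 litter. It was thus tested mainly through the age at which it was high. The log2 change from P28 to P60 was 1.20 with a standard error of 0.346 (limma, adjusted p = 0.894), and from P14 to P60 it was 1.07 with the same standard error (limma, adjusted p = 0.176). Such a gap upward was seen in 6.61% of all tested probe sets between P14 and P60 and in 3.9% between P28 and P60. In the restricted set the change from P14 to P60 was 0.69 (limma, adjusted p = 0.264).

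On the other Flt1 probe sets the ages overlapped. On 106503_at (chip B) the signals were 89.2, 292 and 416 at P14, 58.7, 394 and 427 at P28, and 83.1, 376, 283 and 53.5 at P60, a log2 change from P14 to P60 of -0.40 (limma, adjusted p = 0.781), which was -0.89 leaving out P14 litter 1, -0.048 leaving out P14 litter 3 and -0.082 in the restricted set. Litter 1 of every age and P60 litter 4 lay below the chip B background and the rest above it. On 167596_at (chip C) the signals were 408, 32.1 and 121 at P14, 87.4, 240 and 409 at P28, and 112, 526, 402 and 332 at P60, a change of 0.97 with a 95% interval from -0.39 to 2.33 (limma, adjusted p = 0.462), and 5 of 10 arrays lay above the background. That value was 1.64 without P14 litter 1 (limma, adjusted p = 0.179), 0.36 leaving out P14 litter 2 and 1.41 in the restricted set. On 98453_at (chip A), which was not tested, P14 litter 1 had the highest signal, 388, and 2 of 10 arrays lay above the background. Of the 4 Flt1 probe sets, 98452_at alone lay above background on all 10 arrays.

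**Figure D2:**
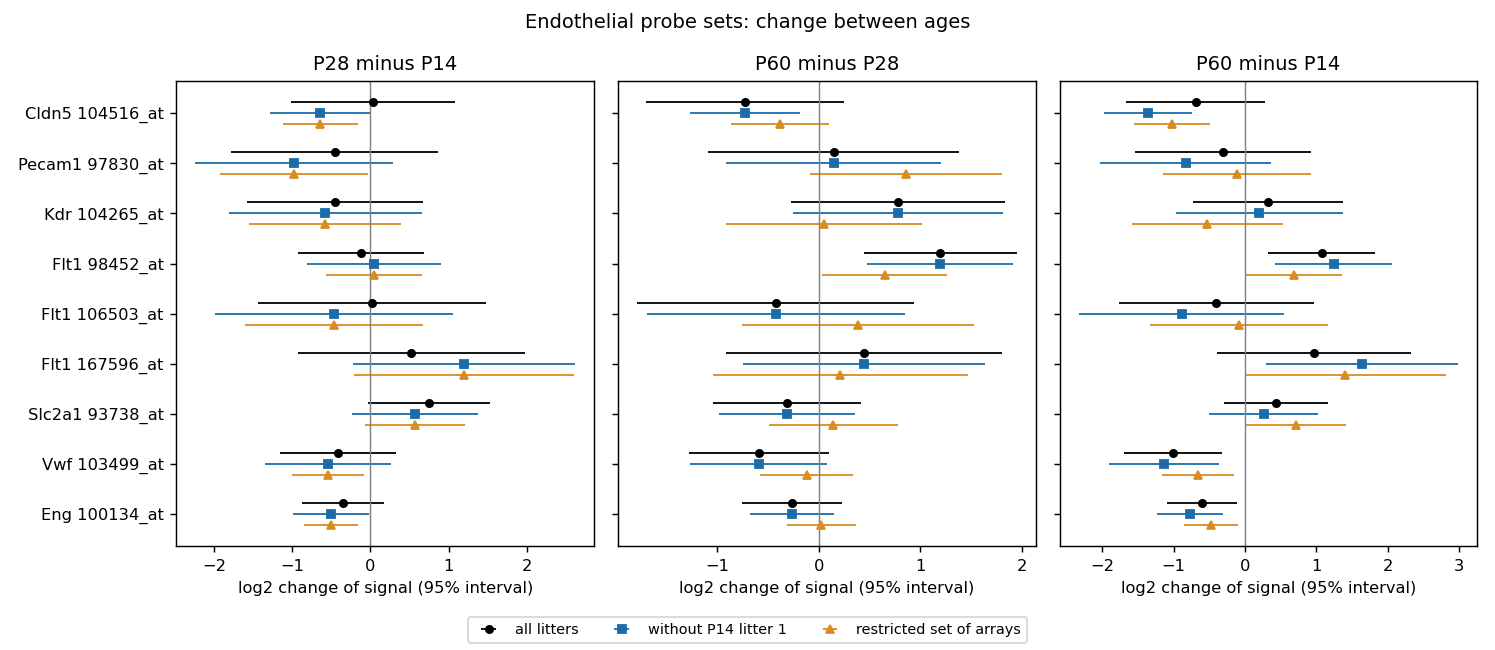
Log2 change of the MAS5 signal between ages for the 9 tested endothelial probe sets, with 95% intervals from limma, for all litters (black), without P14 litter 1 (blue) and for the restricted set of arrays (orange). The Cldn5 estimate for P60 minus P14 moves from -0.69 to -1.36 when P14 litter 1 is left out, and the Kdr estimate turns from 0.33 to -0.53 in the restricted set.

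Tek and Tie1 encode the TIE receptors. Tek, also called TIE2, binds the angiopoietins, and Tie1 forms complexes with it and modulates its signal. Neither gene had a tested probe set. Tek, on 102720_at (chip A), stayed between 65.4 and 120 in all 10 litters, around the Bacillus level of 98.4, and 2 of 10 arrays lay above it. Tie1 on 99936_at (chip A) had signals of 21.4, 204 and 245 at P14, 111, 80.2 and 127 at P28, and 43.8, 36.0, 191 and 29.9 at P60. P14 litters 2 and 3 were the highest and P14 litter 1 the lowest, and P60 litter 3 stood apart from the other P60 litters. The second Tie1 probe set, 161184_f_at, which is of a type that can be shared between related transcripts, lay between 95.9 and 192, highest in P14 litter 1. In a fit without the brightness filter the P14 to P60 changes were 0.05 for Tek and -0.69 and -0.17 for Tie1, with adjusted p from 0.578 to 0.945 (limma).

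**Figure D3:**
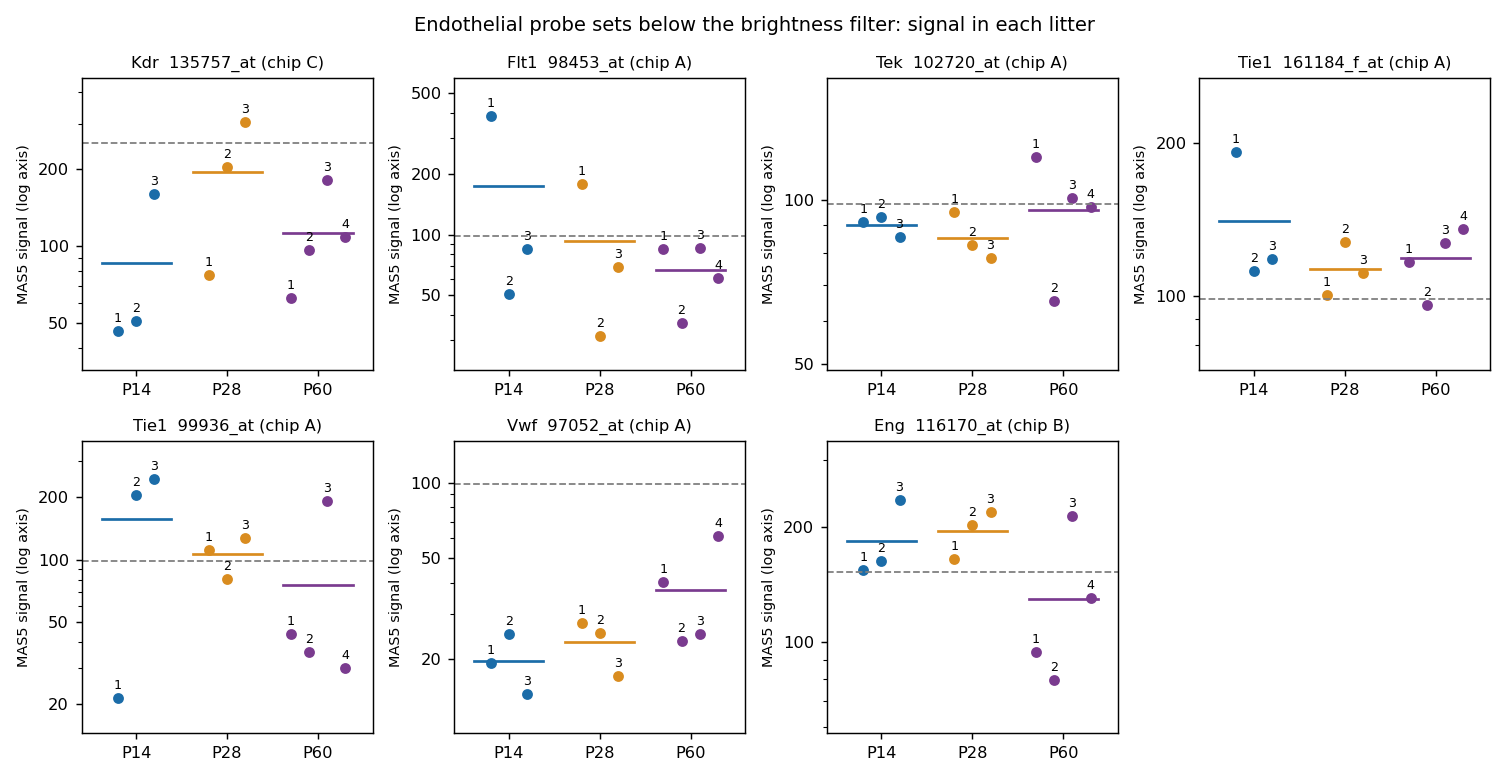
MAS5 signal on a log axis of the 7 endothelial probe sets below the brightness filter, in each litter, with age means as bars and the Bacillus 95th percentile of the chip as a dashed line. Tek points lie between 65.4 and 120, close to the dashed line, and every point of Vwf 97052_at lies below it.

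Vwf encodes von Willebrand factor, a clotting glycoprotein that endothelial cells and megakaryocytes store and release. On 103499_at (chip A) its signals were 244, 353 and 307 at P14, 211, 212 and 219 at P28, and 99.6, 196, 192 and 66.8 at P60. Its 6 arrays above the filter's median were every P14 and every P28 litter, and every P60 litter lay below that median. It was thus tested only through the ages at which it was high. The 3 ages did not overlap, each being lower than the one before. Such a gap downward was seen in 8.41% of all tested probe sets between P14 and P28, in 4.46% between P28 and P60 and in 6.42% between P14 and P60. The log2 change from P14 to P60 was -1.01 with a standard error of 0.317 (limma, adjusted p = 0.168, 95% interval -1.70 to -0.32). It was -1.14 leaving out P14 litter 1 (limma, adjusted p = 0.109) and -0.66 in the restricted set (limma, adjusted p = 0.156), which leaves out P60 litters 1 and 4, the lowest of the study. P60 litter 4 lay below the Bacillus level and P60 litter 1 just above it, and 9 of 10 arrays lay above that level. From P28 to P60 the log2 change was -0.59 with all litters and -0.12 in the restricted set (limma, adjusted p = 0.895 and 0.939). The second Vwf probe set, 97052_at, lay between 14.5 and 61.2, below the Bacillus level on every array, and gives no level for the gene. Vwf is also a platelet gene. Of the 6 platelet and megakaryocyte markers on the arrays 1 was tested, Gp1bb, a platelet receptor subunit for the same protein, with means of 530, 362 and 306 at the 3 ages and a log2 change from P14 to P60 of -0.79 (limma, adjusted p = 0.217), or -0.45 in the restricted set. Its part in the Vwf values was not tested.

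Eng encodes endoglin, an endothelial co-receptor for BMP and TGF-beta ligands that works with the receptor Acvrl1. On 100134_at (chip A) its signals were 931, 1345 and 1275 at P14, 883, 919 and 936 at P28, and 624, 834, 1037 and 595 at P60. P14 litters 2 and 3 lay above all later litters and P14 litter 1 lay among the P28 litters, so the groups overlapped. The log2 change from P14 to P60 was -0.61 with a standard error of 0.225 (limma, adjusted p = 0.23), -0.77 leaving out P14 litter 1 (limma, adjusted p = 0.0821) and -0.48 in the restricted set (limma, adjusted p = 0.166). The dimmer probe set 116170_at (chip B) had signals of 155 to 236 at P14, 165 to 219 at P28 and 79.4 to 214 at P60. Its means were 184, 196 and 129 at the 3 ages, so P60 was lowest here too, but P28 was not below P14. This probe set was not tested, and P60 litters 1, 2 and 4 lay below the chip B background of 153. Acvrl1 had means of 492, 488 and 616 at the 3 ages, a log2 change of 0.33 (limma, adjusted p = 0.548; 0.13 leaving out P14 litter 1 and 0.052 in the restricted set), with 0.16 and 0.40 on its other tested probe sets.

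Over the 9 tested endothelial probe sets, 5 were lower and 4 higher at P60 than at P14, with a median log2 change of -0.31, where the median of all tested probe sets was 0.06. Without P14 litter 1 the median of the 9 was -0.77 and in the restricted set -0.12. From P14 to P28 the median was -0.13 and from P28 to P60 -0.26, again with 5 lower and 4 higher, against 0.03 and -0.01 for all tested probe sets. The comparisons share litters, so these counts are not separate evidence. With 1 probe set per gene, 3 of 7 genes were higher at P60 than at P14, Kdr, Flt1 and Slc2a1, with a median of -0.31 (-0.77 without P14 litter 1, -0.48 in the restricted set), where 54.5% of the 11240 tested genes were.

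On all 7 tested endothelial probe sets of chip A, P60 litters 1 and 4 lay on the same side of litters 2 and 3. They were below them for Cldn5, Pecam1, Slc2a1, Vwf and Eng and above them for Kdr and Flt1. The same split held for 52.4% of all 6819 tested probe sets of chip A, and those litters also had low correlations with the other arrays. It held for 61.7% of tested probe sets on chip B and 33.4% on chip C.

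The results also depended on how arrays were weighted. When limma gave each array a weight from its residual spread, 4 of the 9 endothelial probe sets were called between P14 and P60. These were Cldn5 (log2 change -1.47, adjusted p = 0.0033), Vwf (-1.31, 0.00682), Eng (-0.86, 0.00538) and the chip A probe set of Flt1 (1.41, 0.00723). The same setting called 17.5% of all tested probe sets, against 0.396% with equal weights. On chip A it gave P14 litter 1 a weight of 0.105, against 2.42 and 2.54 for the other P14 litters, and P60 litters 1 to 4 had 0.775, 0.537, 0.51 and 1.26. P60 litters 1 and 4, which the restricted set leaves out, thus had higher weights than litters 2 and 3. On chip B this was so too (1.31 and 1.15 against 0.450 and 0.342). On chip C P60 litter 2, which that set leaves out, had the lowest P60 weight, 0.385. 

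Genes of the same vessels were described on lists of known function, with 1 probe set per gene. Over 18 lists and 152 tested places on them, 1 gene rose and 1 fell between P14 and P60 (Mag and Igf2), and none passed between P14 and P28 or between P28 and P60 (limma, all litters). Of all 11240 tested genes, 17 were called higher and 38 lower between P14 and P60 in the same fit. Neither Mag nor Igf2 is an endothelial gene. Mag encodes a myelin adhesion protein and went from 260 to 775 in the means (log2 change 1.51, limma, adjusted p = 0.0461), with 0.38 on its other tested probe set. Igf2 encodes a growth factor that meninges and vessel walls make, and had a mean of 6160 ± 237 (SD, 3 litters) in the P14 group and of 1786 ± 352 (SD, 4 litters) in the P60 group (log2 change -1.79, limma, adjusted p = 0.00937).

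Of the other blood-brain barrier genes 16 were tested, and 4 were higher at P60 than at P14, with a median log2 change of -0.28. None passed with all litters. The largest differences were those of Mfsd2a, a lipid transporter needed for a tight barrier, Foxq1, an endothelial transcription factor gene, and Slco1c1, a thyroid hormone transporter of brain endothelium and astrocytes. Slco1c1 (chip C) had signals of 7887, 8424 and 8427 at P14, 5436, 5258 and 4705 at P28, and 4052, 2645, 4417 and 4700 at P60. The P14 litters lay far above all later ones, including P14 litter 1, and the log2 change from P14 to P60 was -1.08 with a standard error of 0.216 (limma, adjusted p = 0.0545). It passed when leaving out P14 litter 1 (-1.12, limma, adjusted p = 0.0322) and in the restricted set (-0.94, limma, adjusted p = 0.017). Those fits called 2.4% and 2.13% of all tested probe sets, and 6.42% had every P60 litter below every P14 litter. Mfsd2a (chip B) had 486, 802 and 1101 at P14, 538, 157 and 516 at P28, and 73.6, 395, 438 and 91.7 at P60, a change of -1.66 (limma, adjusted p = 0.17), while its other tested probe set stood at 0.34. Foxq1 had -1.52 (limma, adjusted p = 0.176), with P28 and P60 means of 158 and 108, below the chip C background. Jam2, a junction molecule, stood at -0.65 (limma, adjusted p = 0.3) and at -0.68 on its other tested probe set.

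VEGF ligands and their other partners had 4 of 7 tested genes higher at P60 than at P14, and none passed. The median was 0.07 with all litters, -0.031 leaving out P14 litter 1 and -0.066 in the restricted set. Vegfa, the main ligand of both receptors, had signals on a chip C probe set of 68.7, 572 and 376 at P14, 110, 87.1 and 111 at P28, and 235, 137, 227 and 61.2 at P60. Of the 10 litters 8 lay below the chip C background of 252, and the log2 change from P14 to P60 was -0.66 (limma, adjusted p = 0.577), or -1.39 leaving out P14 litter 1 and -1.35 in the restricted set. Hif1a, an oxygen-regulated transcription factor that drives Vegfa, stood at 5276 at P14 and 2997 at P60 in the means (log2 change -0.79, limma, adjusted p = 0.161; -0.36 in the restricted set). Vegfb, a ligand of Flt1, stood at 0.31 (limma, adjusted p = 0.449) and Nrp1, a VEGF co-receptor, at 0.32 (limma, adjusted p = 0.639), or 0.72 without P14 litter 1, with 0.04 on its other tested probe set.

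Among the partners of the TIE receptors 5 of 6 tested genes were higher at P60 than at P14, with a median of 0.39 (0.22 in the restricted set) and no call. Angpt1, the ligand that activates Tek, had means of 267, 126 and 190 at the 3 ages, the later 2 below the chip C background, and a change of -0.47 (limma, adjusted p = 0.636). Tnip2 stood at 0.93 (limma, adjusted p = 0.149; 0.52 in the restricted set) and Foxo1, a transcription factor held in check by this pathway, at 0.45 (limma, adjusted p = 0.363; 0.12 in the restricted set). Angptl1, counted among the 5, lay below the chip C background on 8 of 10 arrays, among them every P14 and P28 array, so no size is given for its change. Among partners of endoglin 7 of 13 were higher, with a median of 0.03 (-0.031 without P14 litter 1) and no call. Their largest differences were those of Id1, a BMP target, at 0.65 (-0.031 without P14 litter 1), and Smad7, an inhibitor of the pathway, at 0.57, while Smad4, which all its branches share, stood at -0.33 with all litters and at 0.12 without P14 litter 1.

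Notch, ephrin and apelin genes had 6 of 9 higher at P60 than at P14, without a call, and a median of 0.14 with all litters, -0.072 leaving out P14 litter 1 and -0.30 in the restricted set. Notch1, a receptor in endothelial tip cell choice that neural cells also use, stood at -1.52 (limma, adjusted p = 0.103), while its other tested probe set stood at 1.39. Efnb2, an arterial ephrin, had -0.94 (limma, adjusted p = 0.204), or -0.44 leaving out P14 litter 1 and -0.30 in the restricted set. S1pr1, a receptor for sphingosine phosphate, had 0.57, or 1.03 without P14 litter 1, and Aplnr, the apelin receptor, 0.29 with all litters, 0.087 leaving out P14 litter 1 and -0.64 in the restricted set. Of the Wnt and norrin genes, through which neural tissue induces the barrier, 4 of 11 were higher at P60 and the median was -0.17 with all litters, -0.059 leaving out P14 litter 1 and 0.025 in the restricted set. Apcdd1, a Wnt target and inhibitor in brain endothelium, had signals of 404, 1065 and 1225 at P14, 785, 965 and 740 at P28, and 278, 451, 554 and 393 at P60. All P60 litters lay below all P28 litters, and the change from P14 to P60 was -0.93 with all litters (limma, adjusted p = 0.227), -1.40 leaving out P14 litter 1 (limma, adjusted p = 0.0175) and -1.13 in the restricted set (limma, adjusted p = 0.0212). A gap downward from P28 to P60 was seen in 4.46% of all tested probe sets, and the latter 2 fits called 2.4% and 2.13%. Ctnnb1, which encodes beta-catenin, stood at -0.80 (-0.31 in the restricted set), Sox17, an endothelial transcription factor gene, at -0.67 (-0.39 in the restricted set and 0.43 on its other tested probe set) and the ligand gene Wnt7b at 0.80 (0.33 leaving out P14 litter 1 and 0.19 in the restricted set). None of the 3 passed with all litters (limma, adjusted p from 0.19 to 0.246).

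Other endothelial surface and transcription factor genes showed 7 of 20 higher at P60 than at P14, a median of -0.08 (-0.14 without P14 litter 1) and no call. Lmo2 stood at -0.88 (-0.18 in the restricted set, and -0.29 on its other tested probe set) and Vcam1, an adhesion molecule for white blood cells, at -0.51 (-0.34 without P14 litter 1, and -0.025 on its other tested probe set). Cd34, a surface glycoprotein, stood at 0.49 (0.099 in the restricted set, and 0.97 on its other tested probe set) and Ramp2, an adrenomedullin receptor subunit, at -0.46 (-0.11 in the restricted set), and none of the 4 passed (limma, adjusted p from 0.291 to 0.403). Pericyte and smooth muscle markers, which stand for the cells wrapped around the endothelium, had 6 of 10 higher without a call, and a median of 0.07 with all litters, 0.029 leaving out P14 litter 1 and -0.065 in the restricted set. Rgs5, a pericyte gene, stood at -0.59, Vtn, made by pericytes, at 0.64 (0.27 leaving out P14 litter 1 and 0.083 in the restricted set), the muscle gene Tpm2 at -0.60 (-0.27 in the restricted set, and 0.43 on its other tested probe set) and the smooth muscle myosin gene Myh11 at 0.55, which was -0.17 in the restricted set (limma, adjusted p from 0.223 to 0.416 with all litters).

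The vascular basement membrane, the sheet on which endothelium rests, had 1 of 9 tested genes higher at P60 than at P14 and a median of -0.54, against 0.05 for all 11240 tested genes. None passed with all litters. Sparc, a matrix protein gene, had signals of 724, 852 and 1012 at P14, 603, 377 and 415 at P28, and 478, 339, 300 and 420 at P60, and the P14 litters lay above all later ones. Its log2 change from P14 to P60 was -1.10 (limma, adjusted p = 0.0631), and it passed when leaving out P14 litter 1 (-1.21, limma, adjusted p = 0.0274) and in the restricted set (-1.44, limma, adjusted p = 0.017). Those fits called 2.4% and 2.13% of all tested probe sets, and 6.42% had every P60 litter below every P14 litter. Lamc1, a laminin chain, stood at -1.02 (limma, adjusted p = 0.177; -0.44 in the restricted set), fibronectin, Fn1, at -0.88 (limma, adjusted p = 0.121), and the collagen IV gene Col4a1 at -0.77 (limma, adjusted p = 0.121). Sparc and Fn1 are also made by other cells, and whether their signal came from vessels was not tested.

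**Figure D4:**
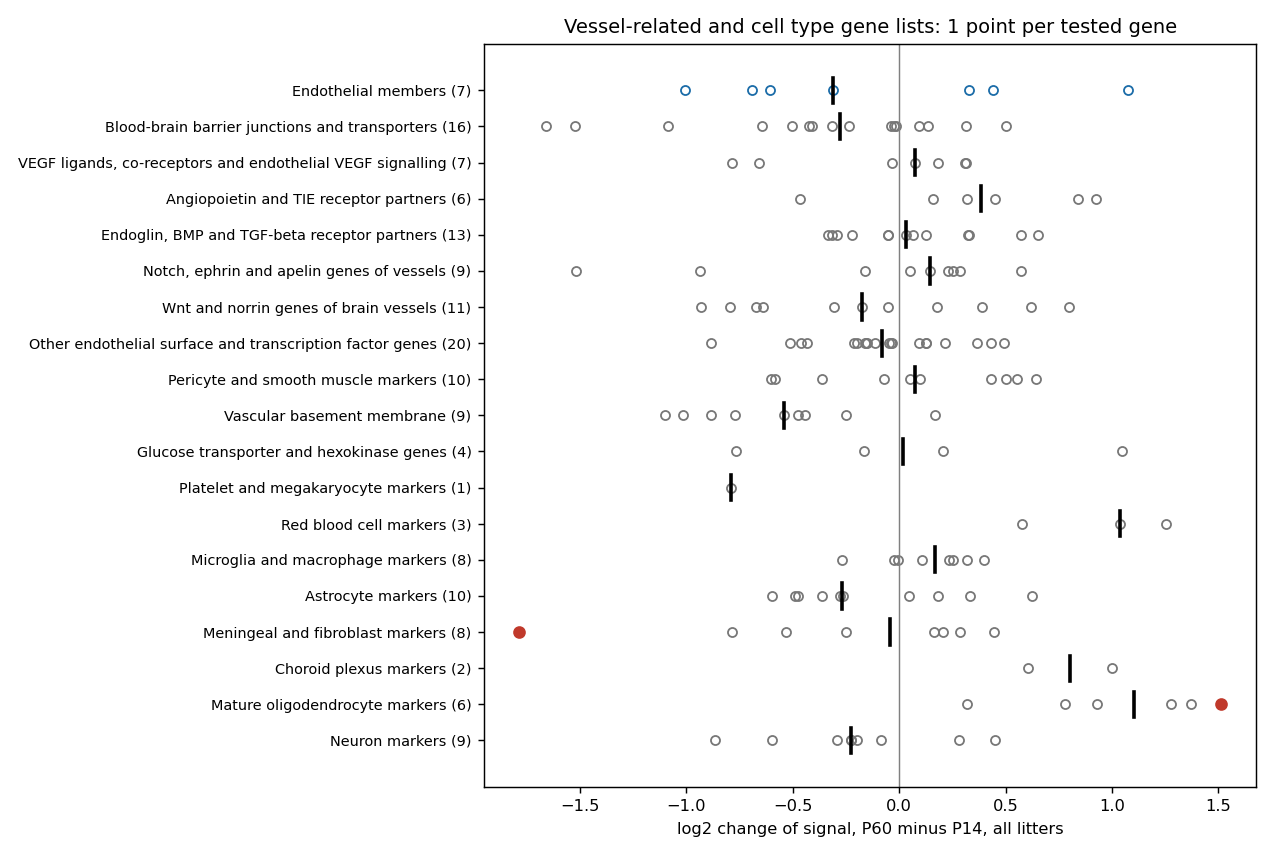
Log2 change of the MAS5 signal from P14 to P60 with all litters, 1 point per tested gene on each list, with the number of tested genes in brackets, a bar at the list median and filled red points for genes past limma's threshold. The endothelial genes lie on both sides of 0, the basement membrane list has its median at -0.54, and the 2 red points are Igf2 at -1.79 and Mag at 1.51.

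Cells that come with vessels or tissue also varied. Of the red blood cell markers 3 of 3 tested genes had a higher P60 than P14 estimate and none passed, with a median of 1.04 (0.63 without P14 litter 1). Their summed signal ran from 5272 to 23993 at P14, from 24816 to 34303 at P28 and from 17478 to 51144 at P60. Hba-a1, a haemoglobin chain, had 4739, 13285 and 22992 at P14 and 16515 to 48597 at P60 (log2 change 1.25, limma, adjusted p = 0.264; 0.63 without P14 litter 1), and the other 2 were Alas2 at 1.04 and Slc4a1 at 0.58. P14 litter 1 was the lowest litter in Hba-a1, in Cldn5, in Slc2a1, on the Tie1 probe set 99936_at and on the untested Kdr probe set 135757_at. It was the highest litter on Tie1 161184_f_at and Flt1 98453_at. On the remaining endothelial probe sets, among them those of Pecam1, Vwf and Eng, it was neither. The part of blood in the endothelial values was not tested.

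Of the other cell types, microglia and macrophage markers had 8 tested genes with a median of 0.17 from P14 to P60 (0.067 leaving out P14 litter 1 and -0.11 in the restricted set) and a summed signal of 3747 to 6083 at P14 and 4865 to 5915 at P60. Astrocyte markers had 10 with a median of -0.27 (0.09 without P14 litter 1), summing to 18334 to 35799 at P14 and 16168 to 23271 at P60. Meningeal and fibroblast markers had 8 with a median of -0.04 (-0.27 without P14 litter 1), summing to 20624 to 23830 and 12984 to 28741, and choroid plexus markers 2 with 0.80 (0.53 without P14 litter 1), summing to 384 to 713 and 797 to 1178. Mature oligodendrocyte markers had 6, all higher at P60, with a median of 1.10, and neuron markers 9 with a median of -0.23 (-0.55 leaving out P14 litter 1 and -0.38 in the restricted set). No tested marker of these lists lay below background on every array. Their part in the endothelial values was not tested.

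The endothelial genes were also compared with every other gene on chip A by their course over the 10 litters. The mean of the 7 chip A probe sets, each centred on its own mean of log2 signal, was highest in P14 litter 3, at 0.43, and lowest in P14 litter 1, at -0.37. The 6 of 5231 genes with the highest Pearson correlation with it were Erdr1 (r = 0.942), Slc38a10 (0.93), Timm44 (0.923), Smpd2 (0.917), Meg3 (0.917) and Ap2a2 (0.912). None of them is on the endothelial or barrier lists. These correlations describe 10 arrays that differ in quality, and without P14 litter 1 they ran from 0.875 to 0.944.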

How the data were processed

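Per the submitters' processing notes, the authors calculated signals with MAS5, and the deposited tables give 1 linear signal intensity per probe set and array. No version or setting is named. Each array's mean after trimming 2% at both ends is close to the same value, so no further scaling was applied. The second litter number in the titles was taken as the litter. That litters are separate samples rests on this label, and p-values measure the spread between them.

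Symbols came from the arrays' annotation, updated through the gene ID, which matched for 99.5% to 99.9% of probe sets with 1 symbol. Those numbered 10855, 10603 and 7739 on chips A, B and C, with 396, 178 and 150 having several symbols and 1237, 1696 and 4045 none. Probe sets with several symbols named no gene. Signals were analysed as log2 of signal plus the chip type's 20th percentile (38.6, 57.8 and 44.0). Tested were the 20724 probe sets, array controls aside, with 3 or more arrays over the median signal of the chip type (207, 252 and 183). Each chip type was fitted with limma 3.58.1 in R 4.3.3 (variance trend, age as the only term, all litters), adjusted by Benjamini-Hochberg over the 3 chip types. The steps were tested on simulated data. Log2 changes near background depend on the added constant, and precision is limited by the number of arrays.

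On the gene lists 1 probe set stood for a gene, chip A before B before C, then the brightest. Named are all probe sets of the 9 genes and, per list, the genes past the threshold or else the up to 4 with the largest absolute P14 to P60 change. Below the threshold, lists of cell types outside vessels and blood are given as lists. The genes most like the endothelial ones were the 6 with the highest correlation. Genes, lists and the restricted set of arrays were chosen with earlier results of these data known.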

Additional observations from a re-analysis of the deposited data

Results flagged for a closer look

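Among the 16 endothelial probe sets, the P60 litters of 1 held a sample far from the others. Tie1 on 99936_at stood at 191 in P60 litter 3, where the other P60 litters lay between 29.9 and 43.8, and the gap took up 0.848 of the range of log2 of signal plus the 20th percentile, above Dixon's 95% critical value for 4 samples. With the smaller constant at the 5th percentile it took up 0.816 and was not above that value, so the mark depends on the added constant. Chance alone marks about 1 in 20 such groups. The probe set was below the brightness filter. Groups of 3 litters were not checked in this way.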

How the results depend on the processing

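The number of probe sets called over the whole arrays depended on the arrays used, and the cause was not tested. Between P14 and P28, where 1 was called with all litters, array weights gave 1163, the restricted set 208 and the replicate block 0, and leaving out 1 litter at a time gave 0 to 26. Between P28 and P60 leaving out 1 litter gave 0 to 1, against 0. Between P14 and P60, against 82, no variance trend gave 51, array weights 3621, the restricted set 441 and the replicate block 0. Leaving out 1 litter gave 0 to 497, where P14 litter 2 left out gave 0, P14 litter 1 left out 497, P60 litter 3 left out 260 and P60 litter 4 left out 8. Over the 3 ages together, against 23, quantile normalization gave 11, no variance trend 6, array weights 3024, the restricted set 221, the replicate block 0 and leaving out 1 litter 0 to 130. Of the endothelial probe sets, between P14 and P60, array weights called 4 and leaving out 1 litter 0 to 1, against 0, and the other settings called none.

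In the labels, litters of different ages share only a number. Deviations of same-numbered litters from their age means correlated between -0.076 and 0.158 and those of other pairs between -0.212 and 0.248. For litter 3 of P28 and P60 the values were 0.131, 0.083 and 0.158 on chips A, B and C. For litter 2 of P14 and P28 they were -0.074, -0.076 and -0.049. Because the ranges overlap, they cannot tell whether the numbers pair the litters. The replicate block, which adds the litter number as a term, called 0 probe sets in every comparison. Only P60 has a litter 4, so that term takes up this litter alone. The block estimates then equal those without P60 litter 4, as for Cldn5 from P14 to P60 (-0.50 in both).

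Some log2 changes of single probe sets turned their sign, none of them past the threshold with all litters. From P14 to P28 these were Cldn5 (-0.021 with quantile normalization, -0.61 with array weights, -0.64 in the restricted set, -0.64 to 0.42 when leaving out 1 litter), Flt1 98452_at (0.059 with array weights, 0.043 in the restricted set, -0.33 to 0.043 when leaving out 1 litter), Flt1 106503_at (-0.014 with the constant at the 5th percentile, -0.51 with array weights, -0.47 in the restricted set, -0.47 to 0.69) and Flt1 167596_at (-0.090 to 1.20). From P28 to P60 they were Pecam1 (-0.059 with quantile normalization, -0.19 with array weights, -0.21 to 0.65 when leaving out 1 litter), Flt1 167596_at (-0.036 to 0.86) and, in the restricted set, Flt1 106503_at (0.38), Slc2a1 (0.14) and Eng (0.026). From P14 to P60 they were, in the restricted set, Kdr (-0.53), Aplnr (-0.64), Myh11 (-0.17) and Slc2a8 (-0.19), with array weights Id1 (-0.059), Smad4 (0.17) and Slc2a8 (-0.10), and when leaving out 1 litter Id1 (-0.031 to 1.20), Smad4 (-0.60 to 0.12), Slc2a8 (-0.11 to 0.36) and Hk1 (-0.40 to 0.090). The calls of Igf2 and Mag had highest adjusted p of 0.108 and 0.161 over all settings (limma).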
